A study of Mus musculus with 16 samples.

Results

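The loading of mRNAs onto polysomes was compared between Gcn2 knockout and wild-type mouse livers in all 16 arrays of the series, since each of the 16 enters the comparison. Knockout mice (Gcn2-/-) lacked the kinase globally, and the wild-type mice (Gcn2+/+) were littermates of the same age range, 3 to 6 months. Isolated livers were perfused in a single pass with medium that held a complete set of amino acids (with methionine) or lacked methionine. One RNA sample came from sucrose gradient fractions that held polysomes, and the other from the detergent-treated supernatant itself (unfractionated RNA). This gave 8 groups with 2 arrays each: knockout and wild-type, with and without methionine, polysome and unfractionated. Every array was hybridised with RNA pooled from 2 perfused livers, so an array is not 1 animal. Loading is the log2 signal in polysome RNA minus that in unfractionated RNA, and the loading difference is knockout loading minus wild-type loading, averaged over both media and also taken within each medium (8 arrays each). A loading difference of 1 is a 2-fold higher ratio of polysome to unfractionated signal in knockout livers. All arrays were scaled to one mean signal, so loading ranks genes against the average mRNA and holds no measure of how much mRNA was in polysomes in all.

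Gcn2, encoded by Eif2ak4, is a protein kinase that senses uncharged tRNA and phosphorylates the initiation factor eIF2. Phosphorylated eIF2 lowers general initiation of translation and favours a few mRNAs with upstream open reading frames, among them Atf4, which encodes a transcription factor of amino acid stress. A second amino acid pathway, mTORC1, controls the mRNAs of ribosomal proteins and elongation factors, which begin with a C followed by a run of pyrimidines, the terminal oligopyrimidine (TOP) tract. An mRNA with a short coding region has room for few ribosomes, so it sediments in a lighter part of the gradient than a long one even when it is well translated.

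Transcript starts are shown for genes on which the results turn, first genes whose loading was higher in knockout livers and then genes whose loading was lower. Each line holds 25 bases of the gene's strand around the annotated start (12 before it and 13 from it), 5′ to 3′, from RefSeq on GRCm38.p6, with capitals for a pyrimidine run of at least 5 bases that opens with C and begins within 5 bases of the start.
Rps18 (chr17:33955653-33955677, minus strand): gtcacttccgCTCTCTCTTCCacag
Rpl38 (chr11:114668568-114668592, plus strand): ggaagcctcgttCTTTCCCCgttct
Rpl22l1 (chr3:28805496-28805520, plus strand): cggcgcaagcccgttCTCTTCCCac
Atp5g2 (chr15:102671035-102671059, minus strand): ccgcgcccccgCCCCTCTCTgtctt
Snrpe (chr1:133610268-133610292, minus strand): cgtttccgggtcttgCTTCCggaag
Rps28 (chr17:33824550-33824574, minus strand): accgcgtgcggtctcgcgagagcga
Brk1 (chr6:113604760-113604784, plus strand): tcttcctcaggcggccgccatggcg
Sec62 (chr3:30792864-30792888, plus strand): caaggctttggggacgagctgtgtt
Ndufa10 (chr1:92473746-92473770, minus strand): tctggtccttgagccggcgcagacg
Psmd13 (chr7:140882382-140882406, plus strand): gcggtgccggaagtgagcgagcact
Such a run stood at the start of 24.0% of the 8903 tested genes with an annotated start, and of 18 of 37 ribosomal protein genes (48.6%). A gene with several annotated starts was counted if any of them had the run. Of the genes called higher over both media with the pool block described below, 59 had an annotated start and 25 had the run (42.4%). It was present in 18 of 47 (38.3%) once ribosomal proteins were set aside. Of the genes called lower, 1 of 8 had it. The share in genes called higher thus lay above that in all tested genes, but most of them lacked a run beginning within 5 bases of the start. Rps28 and Brk1 were among them, though the Brk1 line holds a pyrimidine run that begins farther before the start. The search read the gene's own strand, and a match describes these letters only.

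The deposited signals had a 2% trimmed mean of 150.0 in every array, and between 26.9% and 28.5% of probe sets had a signal of 80 or more. Replicate arrays correlated at 0.968 to 0.976 across genes. The first principal component separated polysome from unfractionated arrays. The second separated the genotypes, with wild-type arrays from 7.68 to 26.8 and knockout arrays from -19.7 to -5.56. On it, the 2 polysome arrays of wild-type livers without methionine stood farthest out at 26.8 and 22.4, against at most 14.8 in any other wild-type array. These 2 arrays enter the loading difference without methionine and over both media but not the one with methionine. Eif2ak4 signals in unfractionated RNA were 41.8 and 44.0 in knockout livers, against 104 and 84.0 in wild-type livers, with methionine, and 42.3 and 21.2 against 64.1 and 91.3 without it; whether the probes lie in the deleted part is not known here. Asns, the asparagine synthetase gene that ATF4 activates, had 66.7 and 67.1 in knockout livers, against 942 and 722 in wild-type livers, in unfractionated RNA with methionine. Of 12 hepatocyte markers, 11 or 12 had a group mean of 80 or more in every group.

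Most calls fell in the arrays without methionine. There 14 genes had higher loading in knockout livers (0.128% of the 10916 genes tested) and 1 had lower loading (0.00916%), by limma with Benjamini-Hochberg adjustment over all tested genes. Over both media and with methionine this fit called none. An unadjusted limma p under 0.05 was found for 1017 genes over both media, more than the 546 that would be 5% of those tested. With methionine 268 genes had one, fewer than 546. Where a polysome and an unfractionated array shared genotype, medium and number, they deviated from their group means together (correlations of 0.19 to 0.33 in all 4 pairs). Setting each polysome array against its own unfractionated array (the pool block) raised the counts. The pool block was an addition to the planned fit, which had no block. With the pool block, 76 genes were called over both media (0.696%), 66 higher (0.605%) and 10 lower (0.0916%) in knockout livers, and 264 without methionine (2.42%), 181 higher (1.66%) and 83 lower (0.76%), while with methionine 3 were higher (0.0275%) and 0 lower. The loading values of the 4 knockout pools and the 4 wild-type pools did not overlap for 650 genes (5.95%), 296 with higher knockout values (2.71%) and 354 with lower ones (3.24%). The change of the loading difference between media was called for no gene by either fit, with 464 and 914 genes at an unadjusted p under 0.05, so no gene was shown to differ between genotypes in only one medium.

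The pool block counts rested on few pools. Over both media, 1 gene was left without wild-type replicate 1 lacking methionine, 8 without wild-type replicate 2 and 9 without knockout replicate 2 of that medium, 3 without wild-type replicate 1 with methionine and 14 without knockout replicate 2 with methionine, while 178 were called without knockout replicate 1 lacking methionine. Without methionine, 0 genes were left without wild-type replicate 1, 32 without wild-type replicate 2 and 30 without knockout replicate 2. With one prior variance for all genes in place of one that follows the mean signal, the pool block called 0 genes over both media and 1 without methionine. The 15 calls made without the block became 0 when any of 10 single arrays was left out (each of the 8 unfractionated arrays, wild-type polysome replicate 1 and knockout polysome replicate 2 without methionine), 5 without the other wild-type polysome array of that medium, and 29 without either wild-type polysome array with methionine.

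Ribosomal proteins made up 5 of the 14 genes with higher loading without methionine and 14 of the 66 called over both media with the pool block. Of the 42 ribosomal protein genes tested, those 5 were called without the block, where 0.128% of all tested genes were. With the pool block 14 of the 42 were called higher over both media and 18 without methionine, where 0.605% and 1.66% of all tested genes were. Of 79 cytosolic ribosomal protein genes listed, 44 had a probe set on the array that names 1 gene and 42 were bright enough to be tested. Their median loading difference was 0.48 over both media, 0.14 with methionine and 0.69 without it, against -0.04, -0.01 and -0.06 over all tested genes. The difference was positive for 37 of 42 over both media, 35 with methionine and 40 without, where 45.3%, 49.1% and 44.99% of all tested genes were positive. The median loading of the list in each pool was -0.80 and -1.03 in knockout livers and -1.07 and -1.05 in wild-type livers with methionine, and -0.82 and -0.62 in knockout livers and -1.53 and -1.45 in wild-type livers without it. The groups did not overlap in either medium, with a wide gap without methionine. For 7 of the 42 genes all 4 knockout pools lay above all 4 wild-type pools, and for 0 below, where 2.71% and 3.24% of all tested genes did so. Leaving out wild-type polysome replicate 1 with methionine brought the list's median with methionine to -0.00.

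Rps18, a protein of the small subunit, had polysome signals of 4717 and 4077 in knockout livers, against 1672 and 2013 in wild-type livers, without methionine. In unfractionated RNA of that medium it had 8951 and 8327 in knockout livers and 9780 and 9009 in wild-type livers. Polysome signals in knockout livers were thus above those in wild-type livers by more than the spread of either pair, while unfractionated signals were slightly below. The loading difference was 1.37 ± 0.22 (SE) without methionine (limma adjusted p = 0.035) and 0.32 with it; over both media it was 0.84 ± 0.15, with an adjusted p of 0.12 without and 0.012 with the pool block. With methionine, Rps18 had 4892 and 3855 in knockout polysome RNA, against 2984 and 3075 in wild-type polysome RNA.

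Rpl22l1, a paralog of the large subunit protein Rpl22, had the largest of the 14 higher differences without methionine, 1.79 ± 0.27 (limma adjusted p = 0.035). Its polysome signals there were 1646 and 1568 in knockout livers and 486 and 618 in wild-type livers, with 2478 and 2121 against 2917 and 2600 in unfractionated RNA. All 4 knockout pools lay above all 4 wild-type pools over both media, where the difference was 1.18 ± 0.19 (adjusted p = 0.12 without and 0.0053 with the pool block in limma). Rpl38 (1.45), Rps28 (1.43), Rps20 (1.46) and Rpl22 (1.35) also had higher loading without methionine, with limma adjusted p from 0.035 to 0.049. Rpl38 had 8664 and 9251 in knockout polysome RNA, against 3587 and 4042 in wild-type polysome RNA. Rps20 had 3371 and 4172 in knockout polysome RNA, against 1345 and 1703 in wild-type polysome RNA.

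**Figure D1:**
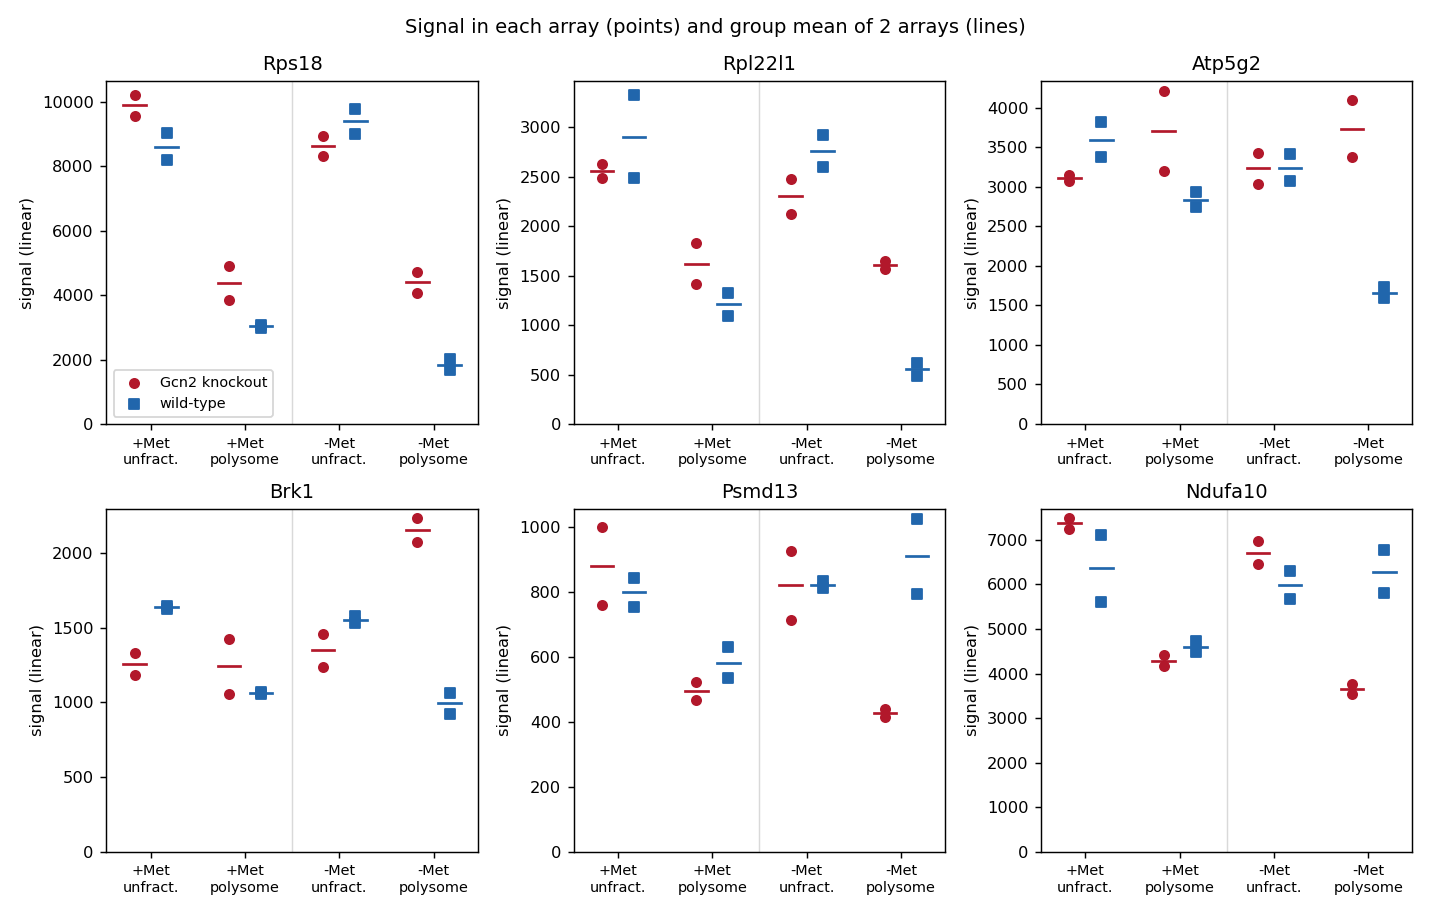
Deposited signal (linear axis from 0) of 6 genes in every array, with knockout livers as red circles left of wild-type livers as blue squares and a line at the mean of each pair. Rps18, Rpl22l1, Atp5g2 and Brk1 have higher polysome signals in knockout livers without methionine (-Met), and Psmd13 and Ndufa10 lower ones, while unfractionated signals of that medium lie closer together.

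The ribosomal protein list did not move as one. Rpl37 (0.99), Rps19 (0.91) and Rps24 (0.78), small proteins named here after their values were seen, were called higher over both media with the pool block in limma, with adjusted p of 0.043, 0.020 and 0.020 in turn. Rpl4 (-0.22) and Rpl8 (-0.17) of the large subunit and Rps27 (-0.40) had values below 0 that were not called. Of the 42 genes, 35 were in the brightest 5% of tested genes and 12 were read by a probe set marked as able to cross-hybridise, so close copies of these genes may share signal. TOP mRNAs other than ribosomal protein mRNAs had a median of 0.12 over both media in 20 genes, with 12 positive and none called. Without methionine 1 of the 20 was called lower with the pool block, where 0.76% of all tested genes were. Eef1a1, the elongation factor with a classical TOP tract, had 11911 and 9589 in knockout polysome RNA, against 10191 and 7871 in wild-type polysome RNA, without methionine, and the ranges overlapped; its loading difference of 0.21 ± 0.15 over both media was not called.

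Subunits of the respiratory chain and ATP synthase encoded in the nucleus split by subunit. The list's median was 0.26 over both media, 0.08 with methionine and 0.35 without it, and 53 of 70 members were positive over both media. With methionine the median was -0.07 without wild-type polysome replicate 1 and -0.01 without wild-type unfractionated replicate 2. With the pool block, 7 were called higher and 1 lower over both media, where 0.605% and 0.0916% of all tested genes were called. Without methionine 16 were called higher and 4 lower, where 1.66% and 0.76% of all tested genes were called. The 7 higher ones were Ndufa3 (0.88), Atp5g2 (0.87), Uqcr10 (0.79), Atp5k (0.76), Atp5e (0.76), Uqcr11 (0.69) and Ndufa1 (0.62), which encode small subunits. Atp5g2 encodes a copy of subunit c, which forms the rotating ring of ATP synthase. It had 4097 and 3373 in knockout polysome RNA, against 1596 and 1729 in wild-type polysome RNA, without methionine, and 3425 and 3037 against 3415 and 3070 in unfractionated RNA. With methionine its polysome signals were 4206 and 3203 in knockout livers, against 2742 and 2933 in wild-type livers. Knockout polysome arrays were thus above wild-type ones in both media, with unfractionated arrays that overlapped without methionine. Its loading was above 0 in all 4 knockout pools and below 0 in all 4 wild-type pools (difference 0.87 ± 0.16 over both media, limma adjusted p = 0.12 without and 0.013 with the pool block).

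Atp5md, a small membrane subunit of ATP synthase, passed the test without methionine at 1.47 ± 0.25 (limma adjusted p = 0.035), with 6064 and 7163 in knockout polysome RNA and 2998 and 2380 in wild-type polysome RNA. Values below 0 stood for Ndufa10, an accessory subunit of complex I (-0.63 over both media), and for Uqcrc2, a core protein of complex III (-0.65).

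Mitochondrial ribosomal proteins had a median of 0.11 over both media in 76 genes, 52 of them positive. The median was 0.12 with methionine and 0.07 without it, and the latter was -0.06 without knockout polysome replicate 2. Mrps24 (0.93) and Mrpl57 (0.78) were called higher over both media with the pool block in limma (adjusted p = 0.024 and 0.037), where 0.605% of all tested genes were. Without methionine 4 were called higher and 1 lower with the pool block, where 1.66% and 0.76% of all tested genes were. Mrps24 had 2153 and 2156 in knockout polysome RNA, against 759 and 655 in wild-type polysome RNA, without methionine.

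**Figure D2:**
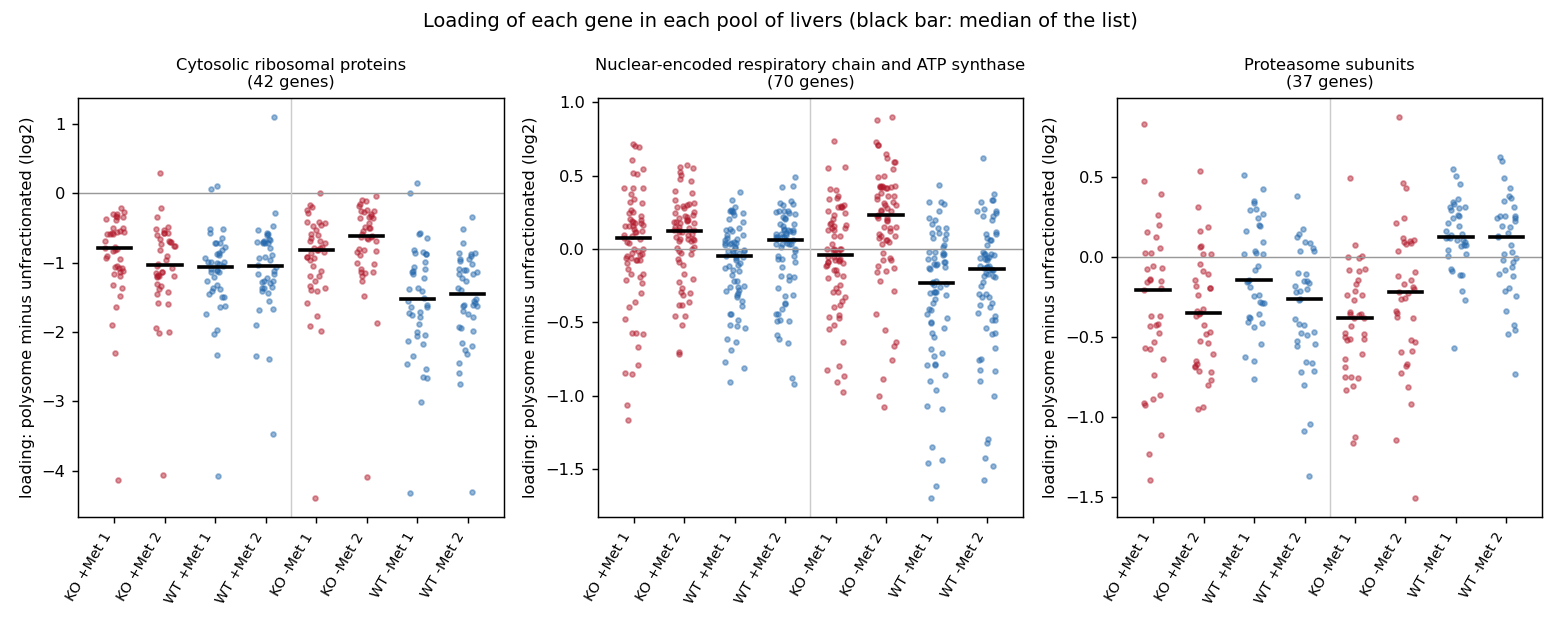
Loading (log2 polysome minus unfractionated) of each gene of 3 lists in the 8 pools of livers, knockout pools in red left of wild-type pools in blue within each medium, with a black bar at the list's median. Ribosomal proteins sit lowest in the wild-type pools without methionine, at -1.53 and -1.45, and proteasome subunits sit highest in the same pools, at 0.13 and 0.12.

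The other genes with higher loading without methionine belong to several processes. Apoc2, the apolipoprotein that activates lipoprotein lipase, had a difference of 1.76 ± 0.29 (limma adjusted p = 0.035). Its polysome signals were 3589 and 4970 in knockout livers and 1557 and 2191 in wild-type livers, but its unfractionated signals also differed, 3626 and 3063 against 5303 and 4677. Snrpe (1.48), a Sm protein of the spliceosome core, had 3014 and 3549 in knockout polysome RNA, against 1065 and 1273 in wild-type polysome RNA. Brk1 (1.31), the smallest subunit of the actin-regulating WAVE complex, had 2074 and 2232 in knockout polysome RNA, against 924 and 1063 in wild-type polysome RNA. Ap3s1 (1.40), the small chain of the AP-3 vesicle adaptor, had 1553 and 1473 against 585 and 497 in the same comparison. The remaining calls were AW112010 (1.33), Tle5 (1.23), a short member of the Groucho corepressor family, and Bag1 (1.19), a nucleotide exchange factor of Hsp70. In all 14 genes the difference was also above 0 with methionine, though none was called there. Without methionine, knockout minus wild-type was in all 14 larger in polysome RNA (median 1.22) than in unfractionated RNA (median -0.18), but the genes were called on these same arrays. The 1 lower gene, Krt78, a keratin, was dim. Without methionine it had 13.2 and 13.04 in knockout polysome RNA, against 32.0 and 80.4 in wild-type polysome RNA, and 62.6 and 79.9 against 6.05 and 10.7 in unfractionated RNA. Of its loading difference of -3.07, the lower polysome signal gave -1.23, and the higher unfractionated signal (1.84) gave the rest.

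With the pool block the largest higher differences over both media belonged to Tmem50b (1.64), 1110038B12Rik (1.41), Jund (1.38), Cxcl1 (1.24), Lyz1 (1.21), Rpl22l1 (1.18), Gdpd3 (1.10), Pigp (1.07), Timm10b (1.04) and Lppos (1.02), a naming rule added after the data were seen. Timm10b, a chaperone of mitochondrial inner membrane import, was bright in all arrays, with 1729 and 1962 in knockout polysome RNA and 744 and 796 in wild-type polysome RNA without methionine. Tmem50b was dim, at 96.3 and 106 against 15.4 and 1.72 in the same groups. Gdpd3 was nearly absent from the knockout pool 2 with methionine in both fractions, at 5.01 in polysome and 7.77 in unfractionated RNA, against 414 and 955 in knockout pool 1. Differences between pools of this size are shared by both fractions, so its SE was 1.26 without the block and 0.24 with it.

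In the genes called over both media with the pool block, the polysome arrays carried the difference. The 66 higher genes had a median knockout minus wild-type difference of 0.71 in polysome RNA and -0.10 in unfractionated RNA, and 61 of 66 differed more in polysome RNA. The 10 lower genes had medians of -0.60 and 0.13, and 9 of 10 differed more in polysome RNA. All 66 had a positive and all 10 a negative loading difference in each medium, and 62 of the 66 had a larger one without methionine. Calling genes on the mean of both media favours the same sign in each, which 55.9% of all tested genes had. Of the other probe sets of these genes with a signal of 80 or more, 58 of 63 had the same sign as the probe set used. The counts in this paragraph come from the arrays on which the genes were called, so they describe the calls and are no separate support.

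The 10 genes called lower over both media with the pool block were Sec62 (-0.82), Ppp4r3b (-0.82), Ddah1 (-0.75), Gpd1 (-0.71), Lap3 (-0.68), Yipf5 (-0.67), Hsd17b13 (-0.65), Eci1 (-0.64), Ndufa10 (-0.63) and Qprt (-0.63), with limma adjusted p from 0.020 to 0.048; none was called without the block. Sec62, part of the translocon that imports proteins into the endoplasmic reticulum, had 754 and 1038 in knockout polysome RNA, against 1961 and 1781 in wild-type polysome RNA, without methionine. Ndufa10 had 3537 and 3760 in knockout polysome RNA, against 6767 and 5801 in wild-type polysome RNA, and 6451 and 6965 against 6302 and 5685 in unfractionated RNA. For both genes the polysome signals of the genotypes did not overlap without methionine. Eci1, an isomerase of fatty acid oxidation, had 2971 and 3409 in knockout polysome RNA, against 7210 and 5274 in wild-type polysome RNA. Gpd1, the cytosolic glycerol-3-phosphate dehydrogenase, had 701 and 488 against 1244 and 1264. Ddah1, which degrades the nitric oxide synthase inhibitor dimethylarginine, differed in another way: its polysome signals without methionine were alike, 2743 and 2444 in knockout livers and 2725 and 2426 in wild-type livers, and its unfractionated signals were higher in knockout livers, 2843 and 2185 against 1539 and 1440.

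Proteasome subunits had lower values almost throughout. Of 37 subunits tested, 2 were positive over both media (5.41%, against 45.3% of all tested genes), 7 with methionine and 3 without. The median was -0.29 over both media, -0.13 with methionine and -0.39 without. Leaving out 1 array put the median with methionine between -0.26 (without wild-type unfractionated replicate 2) and -0.00 (without knockout polysome replicate 2). For 6 subunits all knockout pools lay below all wild-type pools, as they did for 3.24% of all tested genes. No subunit was called over both media, and 3 were called lower without methionine with the pool block, where 0.76% of all tested genes were. The largest difference was that of Psmd13, a subunit of the regulatory particle, at -1.04 ± 0.27 without methionine (limma adjusted p = 0.15 without and 0.029 with the pool block). Its polysome signals were 415 and 438 in knockout livers and 1024 and 794 in wild-type livers, with overlapping unfractionated signals of 925 and 713 against 831 and 810. The list's median loading was -0.38 and -0.22 in the knockout pools and 0.13 and 0.12 in the wild-type pools without methionine, and -0.21 and -0.35 against -0.14 and -0.26 with methionine, where the pools overlapped. Dividing each array by its median signal put the median of all tested genes at 0.16 without methionine, in place of -0.06, and at 0.08 over both media, in place of -0.04, so every list is read against that shift; the medians of ribosomal proteins, respiratory chain, proteasome, PPARA and P450 lists over both media kept their sign under each scaling.

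Enzymes of hepatocyte metabolism lay on the same side. PPARA targets and fatty acid oxidation genes had a median of -0.21 over both media, 0.02 with methionine and -0.54 without it; 4 of 30 were positive without methionine, and 6 were called lower there with the pool block, where 0.76% of all tested genes were. Without wild-type unfractionated replicate 2 lacking methionine the median over both media was -0.10, and without replicate 1 of that group -0.38. The median with methionine took either sign, -0.06 to 0.09, as single arrays were left out. Cytochrome P450 genes of families 1 to 4 had a median of -0.23, with 6 of 41 positive over both media and 3 called lower without methionine with the pool block, against the same 0.76%. Genes of the urea cycle and amino acid catabolism (median -0.17, 2 of 25 positive) and of the methionine cycle and transsulfuration (-0.18, 3 of 19) had no member called over both media. Secreted plasma protein genes had a median of -0.14, 10 of 40 positive, and Apoc2 as their 1 member called higher with the pool block. Alb, the serum albumin gene, had a loading difference of -0.12 ± 0.16 that was not called.

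**Figure D3:**
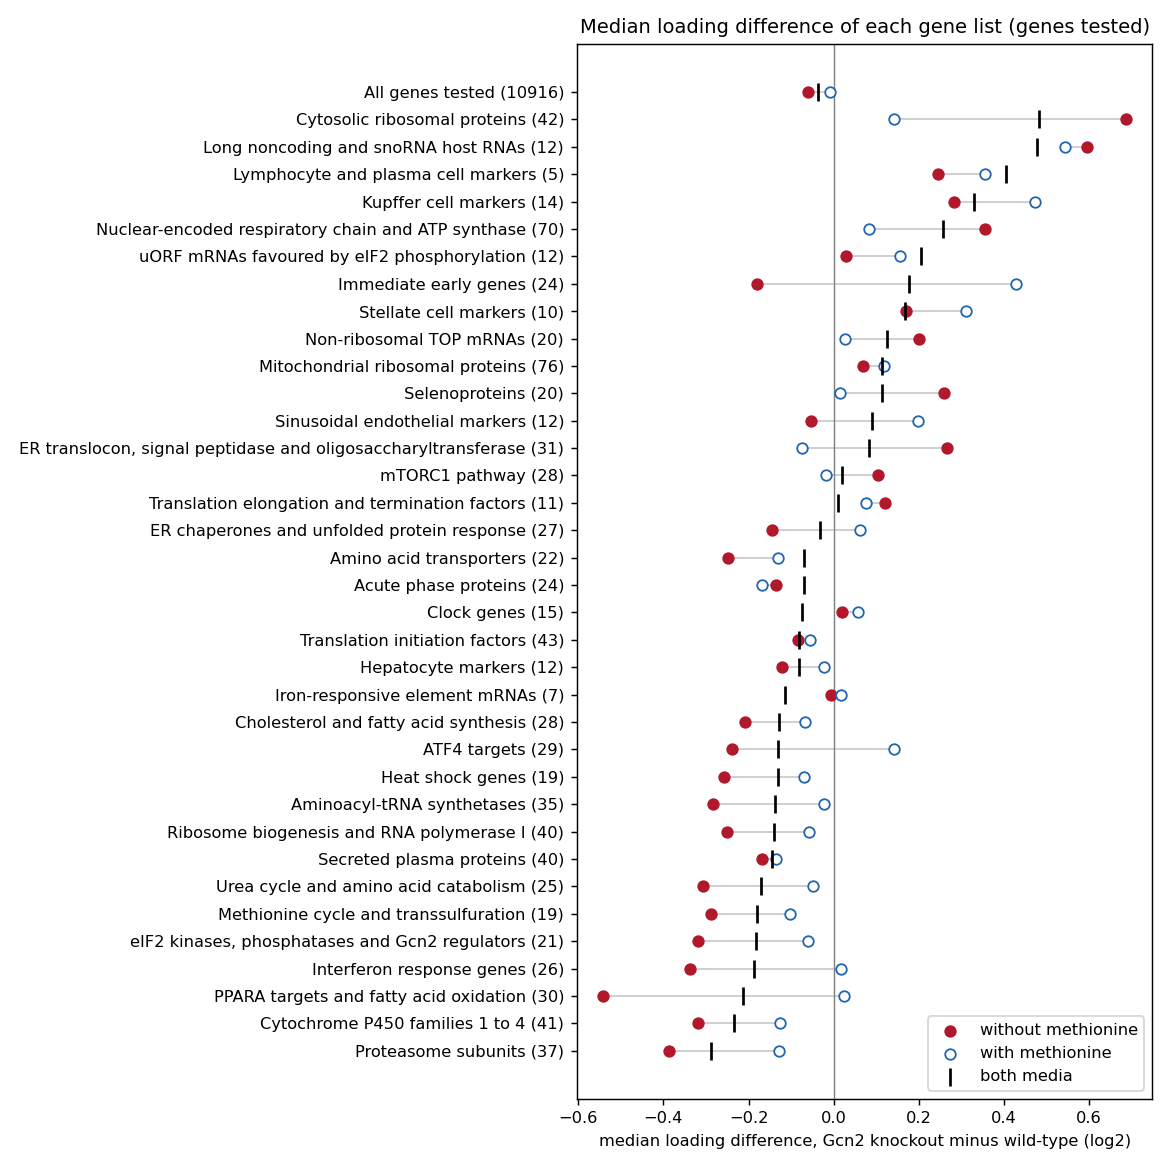
Median loading difference (knockout minus wild-type, log2) of each gene list with at least 5 tested genes, over both media (black tick), with methionine (open blue circle) and without it (filled red circle), numbers of tested genes in brackets, all tested genes on top. Over both media, ribosomal proteins (0.48) and noncoding RNAs (0.48) lie farthest to the right and proteasome subunits (-0.29) farthest to the left.

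With methionine the pool block called 3 genes higher, Jund, Cxcl1 and Gadd45b; the fit without it called 0, and so did a fit with the pool as a random block at its estimated correlation. Jund, a subunit of the transcription factor AP-1, had 3392 and 2919 in knockout polysome RNA, against 2506 and 1078 in wild-type polysome RNA, and 2354 and 1753 against 3941 and 2353 in unfractionated RNA. In each knockout pool the polysome signal exceeded the unfractionated one, and in each wild-type pool it was below it. The loading difference was 1.51 ± 0.21 with the pool block (limma adjusted p = 0.018), and 1.26 without methionine. Cxcl1, a neutrophil-attracting chemokine, differed by 1.63 ± 0.23 (limma with the pool block, adjusted p = 0.018), but knockout pool 2 was far lower than pool 1 in both fractions, at 196 against 1204 in polysome RNA and 350 against 3057 in unfractionated RNA. Gadd45b, a stress-inducible gene, differed by 1.99 ± 0.30 with methionine (limma with the pool block, adjusted p = 0.024) and by -0.90 without it, and this change of sign was not called. Immediate early genes as a list had a median of 0.43 with methionine, with 21 of 24 positive, and of -0.18 without it, with 7 of 24 positive. Leaving out 1 array put the median with methionine between 0.13 (without knockout unfractionated replicate 2) and 0.74 (without knockout unfractionated replicate 1), and median scaling put the median without methionine at 0.05. Without wild-type pool 2 with methionine, and without either wild-type pool lacking it, 0 genes were called with methionine. Without either knockout pool with methionine 1 was called, and without wild-type pool 1 with methionine 15 were.

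The 8 arrays of one medium share no array with the 8 of the other, so their loading differences can be set side by side. Across the 10916 genes, which are not independent replicates, the differences with and without methionine had a Spearman correlation of 0.13 and a Pearson correlation of 0.10, and 55.9% of genes had the same sign in both. The SD over genes was 0.41 with methionine and 0.52 without it, with median SEs of 0.37 in each. Of the 181 genes called higher without methionine with the pool block, 157 were positive with methionine, and of the 83 called lower, 50 were negative.

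**Figure D4:**
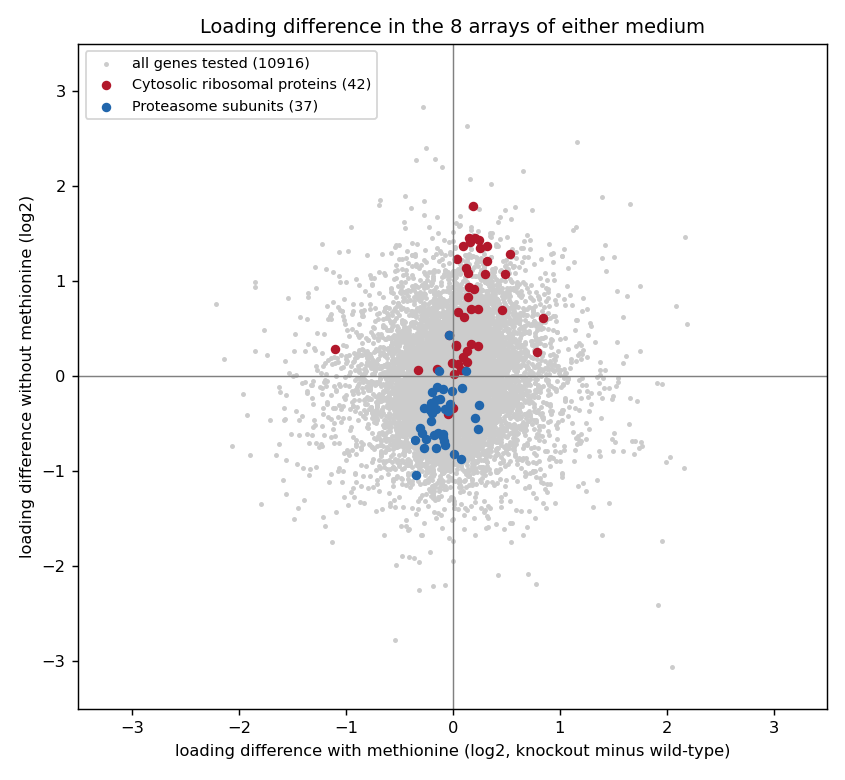
Loading difference (log2, knockout minus wild-type) without methionine against that with methionine for the 10916 tested genes (grey), ribosomal proteins (red, 42 genes) and proteasome subunits (blue, 37 genes). The red points lie above the horizontal zero line, save 2 of 42, and most blue points lie below it.

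Few genes of the pathway that Gcn2 acts in were called. The 12 mRNAs whose upstream open reading frames are favoured by eIF2 phosphorylation had a median of 0.21 over both media, with 8 positive and none called by either fit. The median was 0.15 with methionine and 0.03 without it, and the latter was -0.09 without wild-type unfractionated replicate 1. Atf4 had 1235 and 1848 in knockout polysome RNA, against 1415 and 1380 in wild-type polysome RNA, with methionine, and 2236 and 2350 against 2099 and 2080 without it. The ranges overlapped with methionine, and the loading difference over both media was 0.14 ± 0.17 (limma adjusted p = 0.88). Ddit3, the stress factor CHOP (0.45 ± 0.30), Atf5, an ATF4 relative (0.34 ± 0.28), Ppp1r15a, which directs the phosphatase to eIF2 (0.30 ± 0.34), and Ppp1r15b, its constitutive counterpart (-0.03 ± 0.17), were not called either. Asns had 43.8 and 92.4 in knockout polysome RNA, against 536 and 702 in wild-type polysome RNA, without methionine, and 53.7 and 60.9 against 1137 and 877 in unfractionated RNA. Its knockout signals were near background in both fractions, so its loading difference of 0.55 ± 0.27 depends on dim values and was not called. ATF4 targets had a median of -0.13 over 29 genes, aminoacyl-tRNA synthetases of -0.14 over 35, and eIF2 kinases, phosphatases and Gcn2 regulators of -0.18 over 21, with none called over both media. Of the eIF2 kinases, phosphatases and Gcn2 regulators, 1 was called lower without methionine with the pool block, where 0.76% of all tested genes were. This was Abcf3, a relative of yeast Gcn20, named here after its values were seen (-1.05 without methionine, limma adjusted p = 0.22 without and 0.049 with the block; 0.15 with methionine). Of the ATF4 targets, 1 was called higher in the same fit, where 1.66% of all tested genes were. Trib3, a pseudokinase that ATF4 induces (-0.61 ± 0.33), and Chac1, a glutathione-degrading enzyme (-0.41 ± 0.26), were not called. The called ATF4 target was Eif4ebp1, the translation repressor that mTORC1 phosphorylates, at 1.07 without methionine (limma adjusted p = 0.12 without and 0.024 with the pool block). Its difference was 0.27 with methionine and 0.67 over both media, neither of them called. Without methionine it had 1421 and 1627 in knockout polysome RNA and 748 and 853 in wild-type polysome RNA.

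Summed markers of some other liver cells differed with genotype in unfractionated RNA, and in bulk RNA fewer cells of a type and less RNA per cell cannot be told apart. Of the 16 Kupffer cell (liver macrophage) markers on the array, the summed unfractionated signal was 3547 to 3677 in knockout livers, against 4645 to 4980 in wild-type livers, with methionine, and 3884 to 4244 against 5013 to 5138 without it. In polysome RNA the sums were 1639 to 1761 against 2013 to 2153 with methionine, and 2116 to 2703 against 2178 to 2705 without. The 14 tested markers had a median loading difference of 0.33 over both media, 13 of them positive and none called. Vsig4, a macrophage complement receptor, had the largest difference, 0.59 ± 0.24. Between 9 and 14 of the 16 markers had a group mean of 80 or more. Lymphocyte and plasma cell markers summed to 777 to 937 in knockout unfractionated RNA and 352 to 382 in wild-type unfractionated RNA with methionine, and to 951 to 1770 against 523 to 751 without it, with at most 3 of 15 at a group mean of 80 or more. The higher knockout sums came from Ighm, the immunoglobulin heavy chain gene of IgM, which had 529 and 707 in knockout livers, against 41.8 and 5.05 in wild-type livers, with methionine, and 1496 and 666 against 361 and 150.02 without it. The other 14 markers summed to less in knockout unfractionated RNA, 229.5 to 247.9 against 339.9 to 346.6 with methionine and 274.7 to 284.7 against 373 to 390.4 without it. Of these markers 5 were bright enough to be tested, and all 5 had a positive loading difference over both media. Their median genotype difference in unfractionated RNA was -0.34, with Ighm positive at 3.10 and Jchain negative at -0.92. The part of these cells in the ribosomal protein difference was not tested. Long noncoding and snoRNA host RNAs had a median loading difference of 0.48 over 12 genes, with 10 positive and none called. Their median loading was -1.62 in knockout and -2.14 in wild-type livers over both media. Snhg1 (0.98 ± 0.36) had the largest difference and Neat1 (-0.32 ± 0.36) the smallest.

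Genes called higher spanned little of the genome. The span of the 66 genes called higher over both media with the pool block had a median of 4559 bases, against 22646 bases for the tested genes and 20633 bases for the 10 called lower. In 5 bins of equal size by span, the bin of the shortest 2181 genes held 46 of the 66. Its median loading difference was 0.07 over both media, with knockout loading at 0.03 and wild-type loading at -0.03, and the other bins had medians from -0.08 to -0.02. Across 10903 genes the Spearman correlation between span and loading difference was -0.14 over both media, -0.11 with methionine and -0.11 without. Span is that of the gene on the genome, introns included, and not the length of the mRNA. The 31 genes of the translocon, signal peptidase, signal recognition particle and oligosaccharyltransferase had a median of 0.08 over both media, and -0.02 with the mean over probe sets. Of these 31, 4 were called higher and 1 lower without methionine with the pool block, where 1.66% and 0.76% of all tested genes were. Srp14, a small protein of the signal recognition particle, differed there by 1.25 (limma with the pool block, adjusted p = 0.014), and Sec62 by -0.95 (0.028).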

How the data were processed

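RNA was measured on 16 Affymetrix mouse arrays of 45101 probe sets, labelled with a 1-cycle biotin kit per the labels' protocols. The deposited value table holds a signal intensity per probe set on a linear scale, already scaled by the authors; which algorithm gave the signals is not stated, and the trimmed mean of 150.0 in every array was read from the values. The deposited table of z ratios holds no polysome comparison and was not used. Probe sets were named by the platform annotation: 34945 had 1 symbol, 932 several and 9160 none, and 64 were controls. The brightest of a gene's probe sets stood for it, and of 18193 genes the dimmest 40% were not tested, which left 10916.

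Signals were used as deposited, as log2(signal + 16); fold changes of dim genes are understated. Limma 3.58.1 (R 4.3.3; lmFit, eBayes with trend) fitted 8 group means to all 16 arrays (8 residual degrees of freedom), two-sided, with Benjamini-Hochberg adjustment over 10916 genes at 0.05. The labels call the arrays of a group biological replicates of pooled livers; p-values measure the spread between them. The pool block set each polysome array against the unfractionated array of its number (4 residual degrees of freedom). It was added to the planned fit, which had no block. That the numbers pair the fractions was inferred from the data: deviations correlated at 0.19 to 0.33 within pools and at -0.08 to 0.22 over 24 pairs of different livers. The scripts were tested on simulated data. The number of arrays limits the precision.

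The members and gene lists were chosen with earlier results of these data known. Named were the genes with the 10 largest called differences each way over both media (or the 5 smallest p-values), 5 each way for each other comparison, up to 4 called or else the extreme members of a list, and genes of the Gcn2 pathway. The alternatives were other scalings, pseudocounts, filters, probe set rules, blocks and variance models, one medium alone, and each array or pool left out.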

Additional observations from a re-analysis of the deposited data

Results flagged for a closer look

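Gene by fraction effects differed between genotypes by the interaction term of the limma fit in the arrays without methionine for 15 genes. The loading differences (log2, knockout minus wild-type) were 1.79 for Rpl22l1, 1.76 for Apoc2, 1.48 for Snrpe, 1.47 for Atp5md, 1.46 for Rps20, 1.45 for Rpl38, 1.43 for Rps28, 1.40 for Ap3s1, 1.37 for Rps18, 1.35 for Rpl22, 1.33 for AW112010, 1.31 for Brk1, 1.23 for Tle5, 1.19 for Bag1 and -3.07 for Krt78. Krt78 had a signal of at most 80.4 in any array, and its difference with methionine was 2.05.

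Among the named genes that were not called without the pool block, 6 had a loading above 0 in all 4 pools of one genotype and below 0 in all 4 pools of the other, a pattern that was not itself tested. Many named genes were chosen for large differences, which favours this pattern, and its share in all tested genes was not counted. Pools of the genotypes that did not overlap, whatever the sign of loading, were found for 5.95% of all tested genes. Over both media the differences were 1.38 for Jund, 1.32 for Ankrd33b, 1.10 for Jchain, 1.07 for Pigp, 0.87 for Atp5g2 and -0.63 for Qprt. Ankrd33b was near background in knockout livers, with polysome signals of 14.7 and 10.0 with methionine, against 122 and 156 in wild-type livers, and unfractionated signals of 2.35 and 1.99 against 241 and 247. Its other probe sets differed in the other direction, by -0.18 (mean signal 81.6, against 92.3 for the one used) and by -0.09 (mean signal 28.0). Jchain, a plasma cell gene, was dim, with signals of 18.8 to 51.5 in knockout livers and 29.5 to 155 in wild-type livers.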

How the results depend on the processing

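Counts below are genes called, both directions together. The fit without methionine called 15 genes; it called 0 with median scaling, with centring on the tested genes, with no filter, without the variance trend and on the arrays of that medium alone, 264 with a fixed and 139 with a random pool block. The fit over both media called 0, and 76 with the fixed and 30 with the random block. The fit with methionine called 0, and 3 with the fixed and 0 with the random block. The change between media called 0, and 1 with the random block, with the mean over probe sets and without the trend. With the pool block, results over both media, with methionine, without methionine and for the change between media were 76, 3, 264 and 0; they became 13, 1, 93 and 3 with median scaling, 12, 0, 65 and 1 with the mean over probe sets, and 0, 0, 1 and 1 without the trend. With no filter the pool block called 39 over both media, and on the arrays with methionine alone 0. Leaving out 1 array gave 0 to 10 calls over both media, 0 to 0 with methionine, 0 to 29 without it and 0 to 1 for the change. Leaving out 1 pool from the pool block gave 1 to 178, 0 to 15, 0 to 276 and 0 to 12. Over both media it gave 14 without knockout replicate 2 with methionine, 9 without knockout replicate 2 and 8 without wild-type replicate 2 lacking it; without methionine, 32 without wild-type replicate 2; and for the change, 5 without knockout replicate 2 lacking methionine. Why these counts move was not tested, except that fewer arrays leave fewer degrees of freedom. Among named genes, no value called by the main fit without the block, or by the alternative fit set against it, changed sign. The signs of the pool block calls were not followed under other scalings, filters or left-out pools. Values that those fits did not call did change sign: 101 of the list medians with 1 array left out and 35 under other settings, and 35 and 12 for named genes. Of the list medians, 2641 values stayed within the spread between pools and 264 moved beyond it. The median of all tested genes over both media was -0.04, and 0.08 with median scaling, the shift behind several of these moves. Signal near background limits Asns, Ankrd33b and Krt78.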
